A study of Mus musculus with 22 samples.

Results

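Open chromatin was examined at 35 nuclear genes that encode subunits of respiratory chain complexes I to IV, out of 21883 protein-coding genes of the mouse gene table. They are a given list of subunits, picked with earlier results of these data known, though the rule itself uses no measured value. A list of 31 further genes, other subunits with cytochrome c, is counted apart from them. Of the 35, 22 belong to complex I, 4 to complex II, 5 to complex III and 4 to complex IV. A peak was counted for a gene where its summit lay in the GRCm38 gene body or within 2 kb of it. Gulf War Illness was modelled in adult male wild-type C57BL/6J mice, from which hippocampus and frontal cortex were taken. Every animal, controls included, drank corticosterone for 7 days, was injected on day 8 with diisopropyl fluorophosphate (DFP), which inhibits acetylcholinesterase, and for 5 weeks was given corticosterone again at intervals. The final challenge was saline or LPS (lipopolysaccharide, an inflammatory trigger from the bacterial outer membrane). Saline was followed by collection at 6 h only (2 libraries per tissue), and LPS by collection at 6, 12 or 24 h (3 libraries per tissue and time), which makes 22 libraries from 11 animals with both tissues from each animal. A further baseline animal was left out by the submitters for low depth. Since every group had corticosterone and DFP, the values below describe saline and LPS on that shared background, and at 12 and 24 h LPS and time of collection cannot be told apart.

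The respiratory chain sits in the inner mitochondrial membrane and passes electrons from NADH and succinate to oxygen while pumping protons, and the proton gradient drives ATP synthesis. Most of its subunits are encoded in the nucleus, and the rest in mitochondrial DNA. Neurons depend on it for the ion pumping that follows synaptic activity. Transcription factors known to act at its nuclear genes include NRF1, the ETS family factor GABP, YY1, SP1 and CREB.

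All 35 genes had at least 1 peak in all 22 libraries, as did 16290 of 21883 protein-coding genes (74.4%). For 26 of the 35 an annotated transcription start was matched in the RefSeq promoter table, and at 26 of these 26 a summit lay within 500 bp of the start in every library. The same held for 10340 of 17491 protein-coding genes with an annotated start (59.1%). Open starts were therefore common to both tissues and all challenge groups in these 26 genes, which come from all 4 complexes. The other members, among them Cyc1, Uqcrc2, Uqcrq, Cox4i1 and Cox6c, had no annotated start to check. ATAC-seq of whole tissue does not tell apart a site open in more cells from a site more open in each cell.

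The start regions that carry recurring motifs are shown because the strongest peak lay on them in most libraries. The bases from 250 before to 50 after each of the 26 starts were searched on both strands. The NRF1 motif was searched as GCGCANGCG, the ETS motif as CCGGAAG, the YY1 motif as AAGATGGCG, the SP motif as GGGCGG, the cAMP response element (CRE) as TGACGTCA and the TATA motif as TATAAA. Some matches overlap one another, as an SP and an ETS match do in Ndufs3. Below, 180 bases are given per gene 5′ to 3′ on the gene's strand, from 150 before to 30 after the start, and capitals mark the matches. They are RefSeq sequences of GRCm38.p6, and all 5 genes lie on the minus strand. Sdha, the flavoprotein that oxidises succinate, is at chr13:74350211-74350390. Sdhd, a membrane anchor of complex II, is at chr9:50603820-50603999. Ndufs3, a core subunit of complex I, is at chr2:90904692-90904871. Ndufa10, an accessory subunit of the membrane arm of complex I, is at chr1:92473729-92473908. Uqcrfs1, the Rieske iron-sulfur protein of complex III, is at chr13:30545287-30545466.
Sdha: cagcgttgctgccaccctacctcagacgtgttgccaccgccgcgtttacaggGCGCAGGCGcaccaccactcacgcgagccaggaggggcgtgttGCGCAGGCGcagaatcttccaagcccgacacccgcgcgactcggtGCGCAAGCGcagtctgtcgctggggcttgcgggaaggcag
Sdhd: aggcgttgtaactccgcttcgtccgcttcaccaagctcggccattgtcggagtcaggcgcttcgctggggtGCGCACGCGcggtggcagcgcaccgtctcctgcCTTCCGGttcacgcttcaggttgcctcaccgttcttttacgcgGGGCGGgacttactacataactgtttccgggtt
Ndufs3: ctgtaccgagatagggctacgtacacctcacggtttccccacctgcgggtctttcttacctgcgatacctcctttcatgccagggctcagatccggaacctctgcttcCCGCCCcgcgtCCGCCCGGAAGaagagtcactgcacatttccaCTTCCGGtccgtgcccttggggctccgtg
Ndufa10: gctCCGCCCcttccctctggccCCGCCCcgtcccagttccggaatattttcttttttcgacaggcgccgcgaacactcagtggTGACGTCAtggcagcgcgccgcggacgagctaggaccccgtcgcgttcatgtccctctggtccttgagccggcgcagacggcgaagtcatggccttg
Uqcrfs1: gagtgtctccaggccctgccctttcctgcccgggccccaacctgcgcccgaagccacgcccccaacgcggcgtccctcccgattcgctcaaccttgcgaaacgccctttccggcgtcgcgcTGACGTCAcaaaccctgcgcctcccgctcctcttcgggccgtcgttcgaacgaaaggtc
Sdha held 3 NRF1 matches, at bases -98 to -90, -55 to -47 and -10 to -2 counted from the start, and its strongest peak had a median summit at -50. In Sdhd an NRF1 match at -79 to -71 and an ETS match at -46 to -40 lay on either side of the median summit at -53.

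The NRF1 letters were found in 9 of 26 member promoters (34.6%), against 8.83% of 17491 protein-coding promoters and 14.3% of the 10340 with an open start in every library. The 9 were Ndufa5, Ndufa6, Ndufa8, Ndufb10, Ndufs5, Ndufs6, Sdha, Sdhd and Uqcrc1. The YY1 letters were found in 4 (15.4%, against 1.94% and 3.18%), and in each they lay on the gene's strand just downstream of the start: bases 30 to 38 in Ndufa9, 25 to 33 in Ndufs7, 34 to 42 in Ndufs6 and 36 to 44 in Ndufs4. The ETS letters were found in 5 (19.2%, against 11.9% and 18.0%), namely Ndufb7, Ndufs3, Ndufs8, Sdhb and Sdhd. The CRE letters, searched for after the sequences had been seen, were found in Ndufa10 and Uqcrfs1 (7.69%, against 2.34% and 3.48%). SP letters stood at 38.5% in the members and 66.7% in promoters with an open start, and TATA letters at 11.5% and 6.42%. At least 1 of the NRF1, ETS and YY1 motifs was present in 16 of 26 member promoters (61.5%), in 20.3% of all protein-coding promoters and in 31.5% of those with an open start. These are counts of letters, given with no test. Base composition also differed between the sets. The median ratio of observed to expected CpG (C followed by G) was 0.855 in the members. It was 0.576 in all protein-coding promoters and 0.778 in those with an open start. Median GC content was 59.5%, 56.3% and 61.7% in the same order. The part of composition in the motif counts was not tested. Median fold enrichment at the start was 8.67 in the 9 genes with the NRF1 letters (range 4.60 to 10.8) and 8.27 in the 17 without them (range 4.94 to 10.9), so the ranges overlapped. The promoters of Cox5b, Ndufb3, Ndufb5 and Ndufv1 held no match to any of the 6 motifs.

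Each library's peak list gives, for every peak, the fold enrichment of its summit over the local background of that library, which is the authors' own value. The libraries held 204599 to 307186 peak intervals, and read depth is not known from peak lists. To set libraries of different length side by side, the strongest peak of each gene was ranked within its library among the 16290 genes with a peak in every library, and the rank is given as a percentile (higher is stronger). A longer gene has more peaks to choose its strongest from, so percentiles of different genes are not levels per length. Where the strongest peak of a member lies at the annotated start of a neighbouring gene, it cannot be assigned to either. Its median summit lay within 500 bp of such a start in all 22 libraries for Ndufs1 (Eef1b2), Ndufs3 (Kbtbd4), Ndufa7 (Rps28), Ndufa8 (Morn5), Ndufb3 (Fam126b), Ndufb5 (Mrpl47), Sdha (Ccdc127) and Sdhd (Timm8b). The same held in 9 libraries for Ndufv2 (Ankrd12) and in 1 library for Ndufb10 (Rps2). A start was annotated for 17491 of 21883 protein-coding genes, so shared starts can be missed. Cyc1 has Sharpin, and Ndufa2 has Tmco6 and Ik, within 2 kb, with no annotated start of these found there.

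Within complex I, which takes electrons from NADH, Ndufa9 had the highest median percentile over the 22 libraries (83.3) and Ndufb10 the lowest (7.54). Ndufa9 is an accessory subunit near the quinone site, and its strongest peak was 9.56-fold, 11.2-fold and 13.3-fold over background in the lowest, median and highest library. Ndufb10, an accessory subunit of the membrane arm, had 3.72-fold, 4.72-fold and 5.51-fold. These values do not overlap between the 2 genes in any pair of libraries. In complex II, which oxidises succinate, Sdha led with a median percentile of 81.3 (8.19-fold to 12.3-fold, median 10.8-fold). Sdhb, the iron-sulfur subunit of the same enzyme, was lowest at 15.6 (4.40-fold to 6.56-fold, median 5.41-fold). The other 2 subunits of complex II, the membrane anchors Sdhc and Sdhd, had median percentiles in hippocampus of 79.3 and 74.4. So 3 of the 4 subunits of complex II lay in the upper part of all genes and Sdhb in the lowest part.

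In complex III, which passes electrons from quinol to cytochrome c, Uqcrfs1 had a median percentile of 82.6 and Cyc1, cytochrome c1, of 22.9. Uqcrfs1 ranged from 8.87-fold to 15.0-fold (median 10.9-fold) and Cyc1 from 4.76-fold to 8.44-fold (median 6.19-fold). Complex IV, cytochrome c oxidase, spanned the narrowest range of percentiles among the 4 complexes, from 21.04 for Cox4i1 (5.22-fold to 7.56-fold, median 6.01-fold) to 51.4 for Cox5b (6.66-fold to 10.6-fold, median 8.27-fold). Both encode nuclear subunits that surround the mitochondrially encoded core. The median over the genes of a complex was 53.5 in complex I, 75.8 in complex II, 30.2 in complex III and 34.97 in complex IV. Subunits of 1 complex thus did not share a level, with 3 of the 4 complexes spanning more than 50 percentile points.

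**Figure D1:**
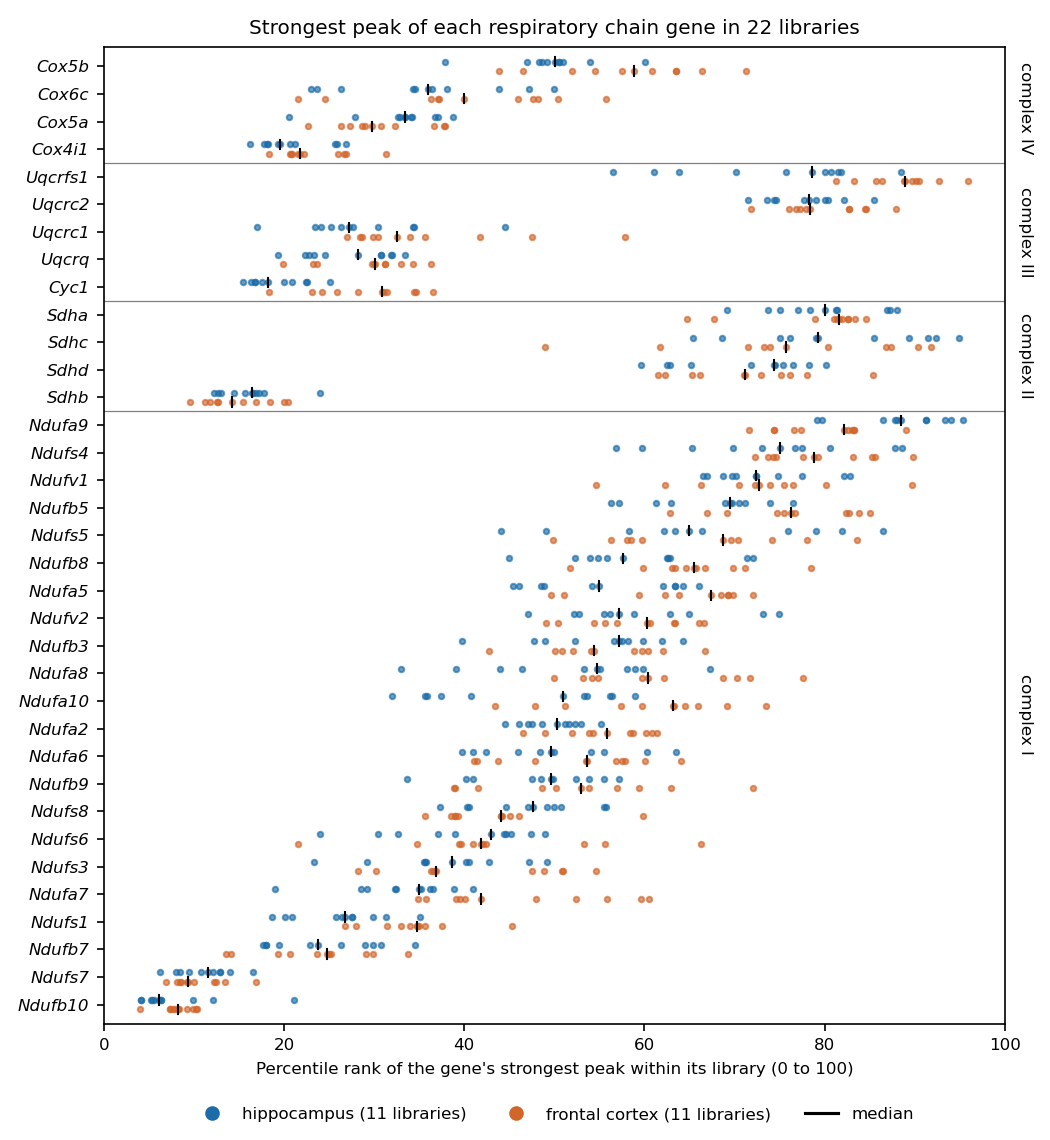
Percentile rank (horizontal axis, 0 to 100) of the strongest peak of each of the 35 genes (vertical axis, grouped by complex) in 11 hippocampus libraries (blue points) and 11 frontal cortex libraries (orange points), with the median of each tissue as a black bar. Medians over all libraries run from 7.54 (Ndufb10) to 83.3 (Ndufa9), and the points of the 2 tissues overlap for every gene.

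The first comparison asked at which sites of these genes hippocampus and frontal cortex differed. In Ndufa10 5 of 21 sites and in Ndufs4 3 of 30 sites had a peak in most hippocampus libraries and in few or no cortex libraries. Sites inside Ndufa9, Ndufa6, Uqcrc2 and, again, Ndufs4 showed the converse. Ndufs4 and Ndufa10 are the longest of the 35 genes and held the most sites. Their counts are therefore not read as an excess over the background given below. In genes with an annotated start, none of the sites that differed lay at that start, but most windows there could not be tested. Sites were taken as windows that reach 250 bp to either side of a summit, and each window tested was present in 2 to 20 libraries. Of the members' 250 windows, 63 (25.2%) were present in all 22 libraries, 61 in a single library and 120 could be tested. By Fisher's exact test, Benjamini-Hochberg adjusted over all windows of the genome, 12 of the 120 (10%) were called as hippocampal and 10 (8.33%) as cortical. The background over all 327331 windows tested was 18.3% towards hippocampus and 12.2% towards frontal cortex, and over the windows of all protein-coding genes 15.3% and 11.2%. The members' share was thus below the background in both directions. The 22 called windows lay in 11 of the 35 genes, 20 of them within gene bodies. Of the 19 in genes with an annotated start, 0 lay within 500 bp of it, and their distances ran from 1502 to 96044 bp. Of the 34 member windows within 500 bp of a start, 28 were present in all 22 libraries and so could not be called. The absence of calls at starts was thus largely fixed by the range of libraries tested. The share of called windows at the starts of all genes was not counted.

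Ndufa10 and Ndufs4 held the hippocampal windows with the lowest adjusted p. Ndufa10 had a window at chr1:92462391-92462891, 11117 bp inside the gene, in 11 of 11 hippocampus and 1 of 11 cortex libraries (Fisher's exact test, adjusted p = 0.000297). Its peaks were 2.66-fold to 7.22-fold over background in hippocampus (median 5.32-fold) and 1.88-fold in the single cortex library. Ndufs4, an accessory subunit of the NADH-oxidising arm whose loss in mice gives a Leigh-like encephalopathy, had a window at chr13:114327666-114328166, 60178 bp from its start, with the same counts and adjusted p. Peaks there were 3.67-fold to 5.87-fold in hippocampus (median 4.98-fold) and 2.18-fold in 1 cortex library. The starts of both genes were open in both tissues. Another Ndufa10 window, at chr1:92452483-92452983, was present in 9 and 0 libraries (adjusted p = 0.00145, Fisher's exact test). A further one, at chr1:92445876-92446376, was present in 8 and 0 (adjusted p = 0.00521). In Ndufs4 a window at chr13:114364615-114365115 was present in 10 and 1 (adjusted p = 0.00215). In the libraries that had them, these 3 were low peaks, with hippocampal medians of 2.49-fold, 2.77-fold and 2.92-fold. The other hippocampal windows lay in Ndufa10 (2 windows), Ndufs4, Ndufa7, Ndufb5, Sdhd and Cyc1.

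Towards frontal cortex, Ndufa9 had a window at chr6:126837039-126837539, 11855 bp inside the gene, in 0 hippocampus and 10 cortex libraries (Fisher's exact test, adjusted p = 0.000297), with peaks of 2.404-fold to 3.89-fold. Ndufa6, an accessory subunit of complex I, had chr15:82351439-82351939 in 1 and 11 libraries (adjusted p = 0.000297, Fisher's exact test), with 2.14-fold to 3.201-fold in cortex and 2.19-fold in the hippocampus library. The strongest of the called windows was again in Ndufs4. At chr13:114304596-114305096, 83248 bp from the start, a peak was present in 2 hippocampus and 11 cortex libraries (adjusted p = 0.00145, Fisher's exact test). It was 6.23-fold to 11.4-fold over background in cortex (median 10.6-fold) and 2.37-fold and 2.71-fold in the 2 hippocampus libraries, so the fold values of the tissues did not overlap. In 4 cortex libraries it was the strongest peak of the whole gene. Uqcrc2, a core protein of complex III, had chr7:120654249-120654749 in 0 and 9 libraries (adjusted p = 0.00145, Fisher's exact test; median 2.99-fold). Outside the body of Ndufs3, by 1093 bp, chr2:90893284-90893784 was present in 2 and 11 (adjusted p = 0.00145, Fisher's exact test; median 2.70-fold in cortex). The other cortical windows lay in Ndufs4, Ndufa9, Uqcrc2, Ndufb5 and Sdhb. The gene table gives gene bodies and not exons, so windows inside genes are not divided into exonic and intronic.

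With the animal as the replicate block, 9 windows remained called towards hippocampus and 7 towards cortex (exact sign test), among them the 10 described with coordinates. The 6 lost were 1 window each of Cyc1, Sdhd, Sdhb, Ndufa9 and Ndufs4 and the cortical window of Ndufb5, with adjusted p from 0.0601 to 0.0988. Windows of Ndufa9 (5 and 11 libraries), Sdhb (5 and 11), Sdhd (6 and 0) and Cyc1 (8 and 1) also lost the call without single animals, with adjusted p up to 0.0935. With only peaks whose -log10 q reached 5, 7 and 4 windows were called, of which 5 and 2 were among the windows above. Of the 10 described with coordinates, 6 lost the call there: the 2 further windows of Ndufa10, the further window of Ndufs4, and those of Ndufa9, Uqcrc2 and Ndufs3 (adjusted p from 0.146 to 0.594). The first windows described for Ndufa10 and Ndufs4, that of Ndufa6 and the cortical one of Ndufs4 kept it. With the 50000 strongest peaks of each library 1 and 1 were called, and of the windows above only the cortical window of Ndufs4 at chr13:114304596-114305096 was among them.

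**Figure D2:**
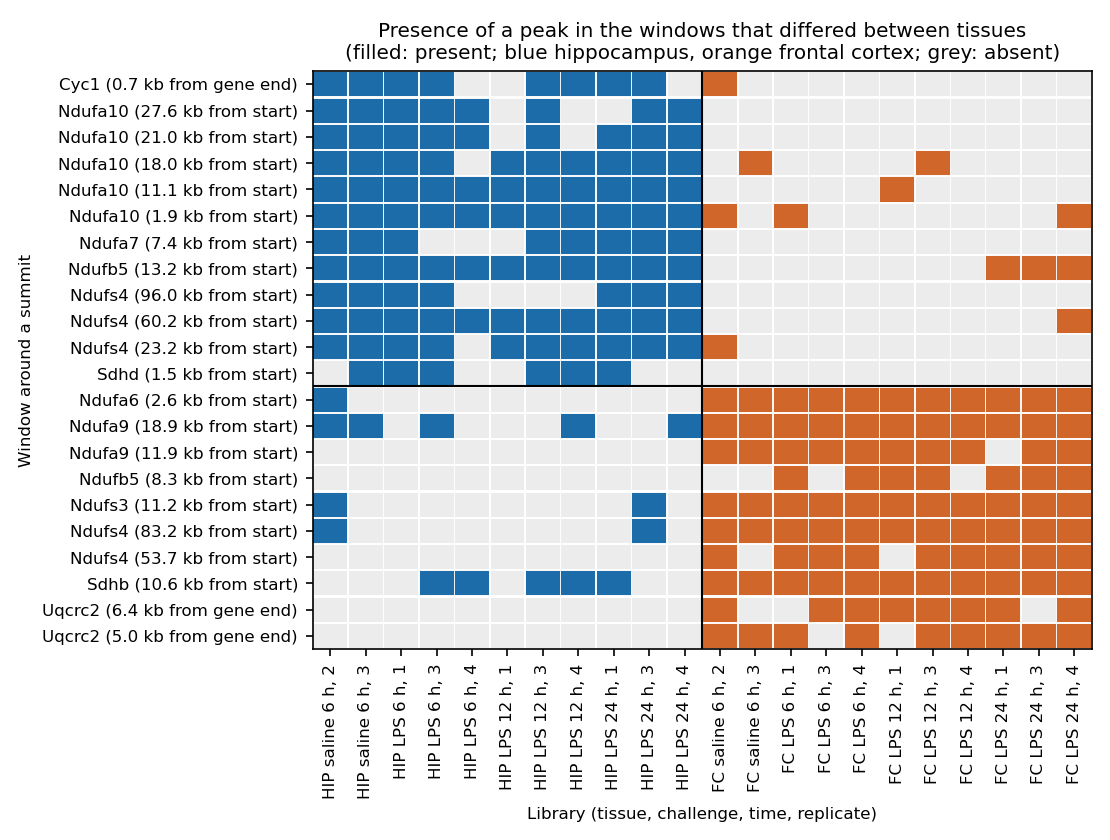
Presence of a peak (filled) in each of the 22 libraries (horizontal axis: tissue, challenge, time, replicate) for the 22 member windows that differed between tissues (vertical axis, with the distance from the annotated start or, where none is annotated, from the nearest gene end). The upper 12 windows are filled mainly in the 11 hippocampus columns (blue) and the lower 10 mainly in the 11 frontal cortex columns (orange).

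**Figure D3:**
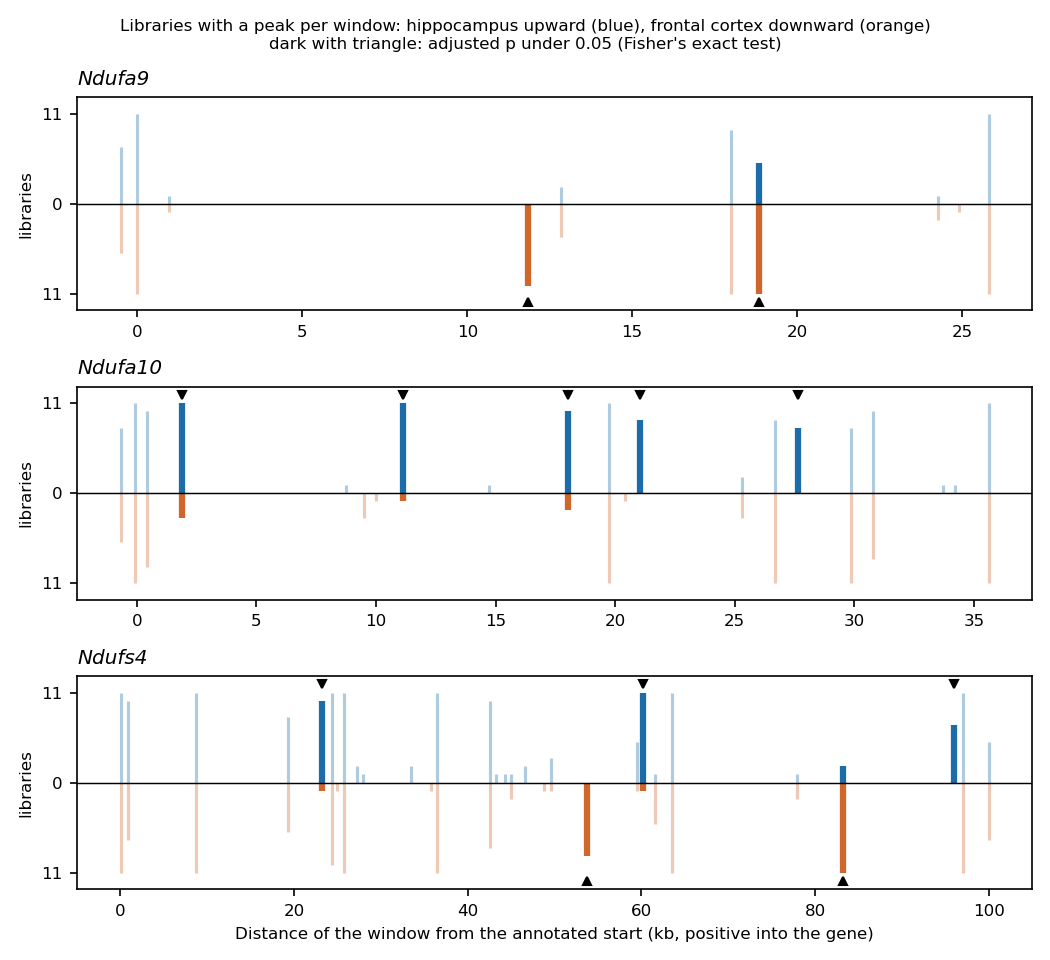
Number of libraries with a peak (vertical axis, hippocampus upward, frontal cortex downward, up to 11 each) at each window along Ndufa9, Ndufa10 and Ndufs4, by distance from the annotated start (horizontal axis, kb). Windows at the start reach 11 on both sides, and triangles mark the called windows, 5 in Ndufa10 towards hippocampus and 3 against 2 in Ndufs4.

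The rank of each gene's strongest peak was then compared between tissues, and markers of the tissues limit how it can be read. At marker genes, the presence of windows followed the labels: Zbtb20, a hippocampal transcription factor, had 61 windows called towards hippocampus and 4 towards cortex, and Rorb, a nuclear receptor of cortical layer neurons, had 1 and 17. The rank of the strongest peak went the other way at 4 of 5 marker genes, all but Cux2. Its mean percentile was 82.3 in hippocampus and 96.3 in cortex at Zbtb20 (limma, adjusted p = 2.23e-05), and 93.9 and 80.9 at Rorb (limma, adjusted p = 0.000518). A higher rank is therefore reported as a rank and not as greater accessibility of the gene in that tissue, and the cause was not tested. Of 5 microglial genes 2 ranked lower in hippocampus by the same limma test and 0 higher, with a mean percentile of the list of 22.5 to 36.3 in hippocampus libraries and 32.7 to 46.2 in cortex libraries. Among the microglial genes that did not pass, Cx3cr1 (2.61) and Tmem119 (5.38) went the other way and Csf1r (-6.03) did not. Of 3 neuronal genes 1 ranked higher, with 33.1 to 54.1 and 24.1 to 40.8. Astrocyte genes ranked higher in 2 and lower in 1 of 5 cases, and oligodendrocyte genes in 1 and 0 of 5. Endothelial genes ranked higher in 1 and lower in 2 of the 4 with a peak in every library. Of 5 blood genes, Ptprc and Cd3e had a peak in all 22 libraries, Hbb-bs in 7, S100a8 in 1 and Ly6g in 0. Ptprc ranked lower in hippocampus (85.7 against 92.3, limma adjusted p = 0.00448), and Cd3e stood at 11.8 and 8.33 (limma adjusted p = 0.368). The part of these differences in the ranks below was not tested.

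Of the 35 genes 9 ranked lower in hippocampus and 1, Ndufa9, ranked higher (limma, adjusted p under 0.05 over 16290 genes). The 9 lower were Uqcrfs1, Ndufa10, Ndufa7, Ndufa8, Cyc1, Ndufb5, Cox5b, Ndufs1 and Ndufa2, in 3 of the 4 complexes. Among them, Ndufa7, Ndufa8, Ndufb5 and Ndufs1 had their strongest peak at the start of a neighbouring gene, as named above. Their differences cannot be assigned to the member or to its neighbour. The 1 higher is 2.86% of the members, against 17.3% of all genes, and the 9 lower are 25.7%, against 18.8%. The median difference, hippocampus minus cortex, was -2.50 percentile points over the members and -0.37 over all genes. Below 0 were 24 of 35 members and 8627 of all 16290 genes. The ranges of the 2 tissues overlapped for each of the 35 genes, while 4.67% of all genes had no overlap.

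In complex III all 5 genes had a negative difference (median -7.20 percentile points), and 2 passed the test. Uqcrfs1 stood at 56.5, 78.6 and 88.5 (lowest, median and highest of 11 libraries) in hippocampus and 81.2, 89.0 and 95.9 in cortex, a difference of -14.1 (SE 3.19, limma adjusted p = 0.00134). It was lower in hippocampus in 10 of 11 animals, and its strongest peak was the start in all 22 libraries. Cyc1 stood at 15.4, 18.2 and 25.1 in hippocampus and 18.4, 30.9 and 36.5 in cortex, a difference of -9.71 (SE 1.95, limma adjusted p = 0.000422), lower in 10 of 11 animals. The 2 core proteins Uqcrc1 and Uqcrc2 and the small subunit Uqcrq had differences of -7.20, -2.13 and -2.12, which did not pass.

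Complex I had 6 genes that ranked lower and 1 that ranked higher, with a median difference of -3.68 over its 22 genes. Ndufa10 ranked lower in hippocampus at 31.9, 51.0 and 59.0 against 43.4, 63.1 and 73.5 in cortex, a difference of -13.5 (SE 3.96, limma adjusted p = 0.0100, lower in 10 of 11 animals). This is the gene with 5 windows called towards hippocampus, so its rank and its called windows pointed to different tissues. At chr1:92446844-92447344 in Ndufa10 a peak was present in 9 hippocampus and 11 cortex libraries and was not called. Its fold values were higher in cortex without overlap, at 2.201-fold to 4.363-fold in hippocampus and 5.199-fold to 8.351-fold in cortex. Fold values within windows were not tested. Ndufa7, an accessory subunit of the peripheral arm, stood at 19.01, 34.99 and 41.01 against 34.9, 41.9 and 60.5, a difference of -13.02 (SE 3.28, limma adjusted p = 0.00325). It is the single member lower in hippocampus in 11 of 11 animals. Ndufs1, the largest core subunit, stood at 18.7, 26.8 and 35.1 against 26.8, 34.8 and 45.3 (difference -7.85, SE 2.10, limma adjusted p = 0.00513, 10 of 11 animals). Ndufb5, of the membrane arm, had -8.92 (SE 2.90, limma adjusted p = 0.0188, 10 of 11 animals), and Ndufa2, of the peripheral arm, -5.79 (SE 1.81, limma adjusted p = 0.0151, 9 of 11 animals). Ndufa8 had -10.3 (SE 3.90, limma adjusted p = 0.0431, 8 of 11 animals), which did not pass with the animal as the replicate block (adjusted p = 0.0604). Ranked by -log10 p in place of fold enrichment, 5 of these 6 lower genes lost the call: Ndufa2 (-1.03, limma adjusted p = 0.737), Ndufb5 (-1.06, 0.513), Ndufa8 (-5.89, 0.233), Ndufs1 (-5.15, 0.171) and Ndufa7 (-7.88, 0.111). On log2 fold enrichment Ndufa2 also lost it (limma adjusted p = 0.0579). Without single animals Ndufa8 lost the call in 6 of 11 fits, the farthest without replicate 1 of LPS 6 h (adjusted p = 0.137, limma).

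Ndufa9 ranked higher in hippocampus, at 79.2, 88.4 and 95.4 against 71.6, 82.2 and 89.0 in cortex, a difference of 8.83 (SE 2.24, limma adjusted p = 0.00343, higher in 10 of 11 animals). Its strongest peak was not the same site in both tissues. In all 11 hippocampus libraries and 1 cortex library the median summit lay 25830 bp from the start, inside the gene and 1451 bp from its other end, and in the other 10 cortex libraries it lay at the start. Both sites were present in 11 of 11 libraries of each tissue. With only peaks within 1 kb of a gene end, the Ndufa9 difference was -2.59 (limma adjusted p = 0.473), so the call rests on the site near the far end of the gene. Ndufs4 also changed site: its strongest peak was 83218 bp from the start in 4 cortex libraries and no hippocampus library, 8759 bp from it in 7 hippocampus and 3 cortex libraries, and at the start in 4 and 4. Its rank, 73.7 ± 10.3 against 79.5 ± 5.76 (mean ± SD, n = 11 each), did not differ by limma (adjusted p = 0.202).

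In complex IV, Cox5b ranked lower in hippocampus, at 37.9, 50.1 and 60.02 against 43.9, 58.9 and 71.3, a difference of -8.31 (SE 2.89, limma adjusted p = 0.0278, 8 of 11 animals). Leaving out 1 of 6 of the animals ended this call, with adjusted p from 0.0535 to 0.0618 (limma). It was also lost when ranked by -log10 p (limma adjusted p = 0.235), on log2 fold enrichment (0.0506), near gene ends (0.0669) and near starts (0.0773). Cox4i1, Cox5a and Cox6c did not pass. Complex II had 0 of 4 genes called in either direction and a median difference of 0.97. For Sdha the hippocampus and cortex means were 79.8 and 79.1, and for Sdhb 16.1 and 14.8, with SEs of the difference of 2.64 and 1.56 percentile points.

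**Figure D4:**
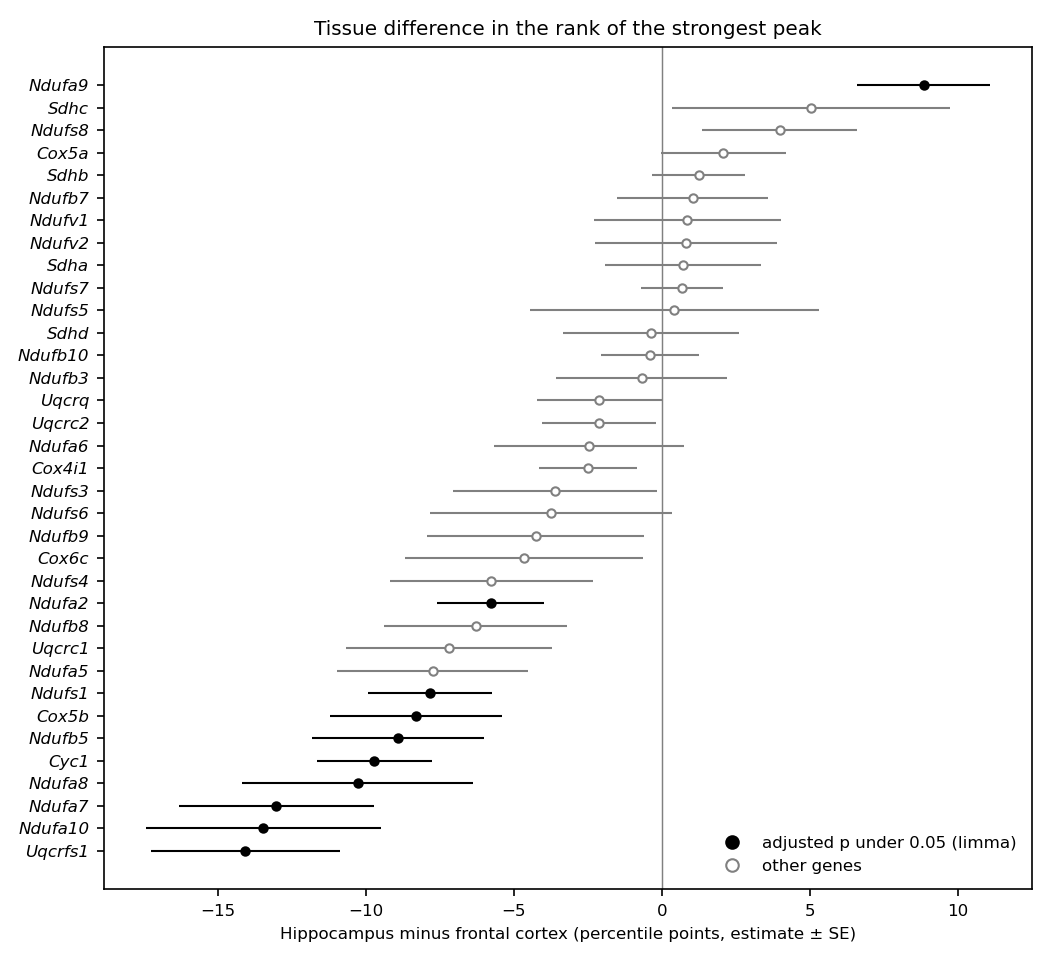
Difference in percentile rank of the strongest peak, hippocampus minus frontal cortex (horizontal axis, percentile points, points with bars of 1 SE), for the 35 genes (vertical axis, ordered by difference), with filled points for limma adjusted p under 0.05. Filled points run from -14.1 (Uqcrfs1) to -5.79 (Ndufa2) on the lower side, and Ndufa9 at 8.83 is the single one on the higher side.

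Other genes of the pathway were counted in the same fit. The further subunits of complexes I to IV were listed with cytochrome c, which is not a subunit. Of 30 genes of this list with a peak in every library, out of 31, 2 ranked higher in hippocampus and 7 lower, with a median difference of -3.45. The 2 higher were Cycs, cytochrome c, by 10.8 (limma adjusted p = 9.1e-05) and Cox8b of complex IV by 8.97 (limma adjusted p = 4.9e-05). Ndufc1 and Ndufv3, both of complex I, differed by -20.3 and -18.8. Of 16 genes of complex V, the ATP synthase, 1 (Atpif1, its inhibitor) ranked higher and 6 lower (median -3.34), with Atp5k at -27.0 and Atp5l at -19.97. Of 34 assembly factors, 3 ranked higher (Sco1, Bcs1l, Uqcc2) and 4 lower (Ttc19, Cox10, Sdhaf2, Foxred1), with a median of -0.95. Of 16 regulators, Esrra and Creb1 ranked higher and Gabpa and Gabpb1, which encode the subunits of GABP, lower (median 0.44). Gabpa and Atp5j of complex V share 1 start peak and have identical values. The shares ranked higher were 6.67%, 6.25%, 8.82% and 12.5% of the further subunits with Cycs, complex V, assembly factors and regulators. In the same order the shares ranked lower were 23.3%, 37.5%, 11.8% and 12.5%. Over all genes 17.3% ranked higher and 18.8% lower. No test compared the lists.

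The second comparison asked whether LPS changed these peaks at 6, 12 or 24 h. In neither tissue and at none of the 3 times did any of the 35 genes pass the test on rank (limma, lowest adjusted p 0.331 for Ndufa10 in frontal cortex at 24 h). Over all 16290 genes the called shares were 0.00614% at 6 h, 0.0123% at 12 h and 0.00614% at 24 h in hippocampus, and 0.0%, 0.00614% and 0.0307% in frontal cortex. An unadjusted p under 0.05 (limma) was reached by 2, 3 and 3 of the 35 members in hippocampus and by 4, 2 and 4 in frontal cortex. Among all 16290 genes it was reached by 1103, 1204 and 1368 in hippocampus and by 1005, 1039 and 1445 in frontal cortex. With 3 libraries against 2, the median SE of a member's difference was 5.47 percentile points in hippocampus and 5.67 in frontal cortex. All 3 contrasts of a tissue use the same 2 saline libraries, so the same displacement at several times is not independent. Each pair of saline libraries comes from 2 animals, and leaving out replicate 3 of the frontal cortex saline libraries raised the calls over all genes at 6 h to 27 higher and 116 lower, with a lowest adjusted p of 0.0927 among members (limma). Such a fit has 1 saline library in that tissue, which is assumed to vary like the other groups.

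The genes below were named for the size of their differences, so libraries that lie apart from saline add no separate evidence. At a single time and tissue, 19.4% to 25.0% of all genes did not overlap saline. The share of all genes with all 9 LPS libraries on 1 side of saline was not counted. Ndufa10 had the largest positive difference in 4 of the 6 contrasts. In frontal cortex its percentiles were 43.4 and 47.9 with saline, 65.9, 59.7 and 51.2 at 6 h, 63.3, 63.1 and 64.5 at 12 h, and 57.4, 73.5 and 69.2 at 24 h. All 9 LPS libraries lay above both saline libraries, with differences of 18.0 at 12 h (SE 5.28, limma adjusted p = 0.625) and 21.1 at 24 h (SE 5.28, limma adjusted p = 0.331). In saline replicate 2 its strongest peak was another site, 26664 bp from the start. In hippocampus Ndufa10 stood at 31.9 and 35.8 with saline, 35.7, 59.0 and 53.6 at 6 h, 53.3, 56.4 and 51.0 at 12 h, and 37.5, 56.1 and 40.7 at 24 h. Here 1 of 9 LPS libraries lay within the saline range, and the differences were 15.5, 19.7 and 10.9 (SE 7.17, limma adjusted p 0.607 to 0.746). Without LPS replicate 3 the difference at 24 h was 5.21.

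The strongest peak of Ndufb5 lay at the start shared with Mrpl47. Ndufb5 stood at 56.3 and 57.2 in hippocampus with saline, 70.5, 61.3 and 71.1 at 6 h, 68.9, 62.9 and 69.5 at 12 h, and 69.7, 73.9 and 76.5 at 24 h. All 9 LPS libraries lay above saline, by 10.9 at 6 h (SE 3.76, limma adjusted p = 0.680) and 16.6 at 24 h (SE 3.76, limma adjusted p = 0.368). In frontal cortex, 8 of 9 LPS libraries of Ndufb5 lay above the saline values of 69.2 and 66.9, and the exception was 62.8 at 24 h. Uqcrfs1 at 12 h in hippocampus differed by 10.4 (SE 9.10, limma adjusted p = 0.862), with saline at 56.5 and 81.9 and LPS at 88.5, 80.0 and 70.2, so the groups overlapped. Without saline replicate 2 this difference was -2.30.

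Ndufa7, with its strongest peak at the start shared with Rps28, had negative differences in both tissues. In hippocampus its percentiles were 38.9 and 41.0 with saline, 34.99, 36.2 and 32.3 at 6 h, 19.0, 29.2 and 28.6 at 12 h, and 36.5, 32.4 and 35.2 at 24 h. All 9 lay below saline, with -14.4 at 12 h (SE 3.41, limma adjusted p = 0.494). In frontal cortex saline stood at 60.5 and 52.4 and LPS at 55.8, 39.0 and 39.6 at 6 h, 41.9, 34.9 and 59.6 at 12 h, and 47.9, 35.8 and 40.1 at 24 h, with -15.2 at 24 h (SE 7.77, limma adjusted p = 0.617). The 3 libraries at 24 h lay below both saline libraries, while at 6 and 12 h 1 library lay between them. Cox5b in hippocampus stood at 60.02 and 53.9 with saline and at 37.9 to 50.9 in the 9 LPS libraries, none of which reached the saline values (-12.01 at 24 h, SE 3.65, limma adjusted p = 0.469). In frontal cortex Cox5b overlapped saline at each time.

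Other members with the largest differences were Sdhc at 6 h (-12.2 in hippocampus, SE 7.099, and -13.2 in frontal cortex, SE 9.93), Ndufs5 (-11.6 in hippocampus at 24 h, SE 12.0, and -7.73 in frontal cortex at 12 h, SE 7.25) and Ndufv2 (-14.1 in hippocampus at 12 h, SE 6.84, and -9.92 in frontal cortex at 24 h, SE 4.62). Ndufv2 and Sdhc changed their strongest site between libraries, and with peaks within 1 kb of a gene end the hippocampal Ndufv2 difference was 1.63. Single libraries moved these values: without hippocampal saline replicates 2 and 3 in turn, Sdhc was -4.01 and -20.5, Ndufs5 -5.27 and -17.9 and Ndufv2 -7.00 and -21.3. Hippocampal Ndufs5 was -3.04 and -19.0 without LPS replicates 1 and 3. In frontal cortex Sdhc was -5.29 without LPS replicate 3, and Ndufs5 was -15.6 and 0.132 without saline replicates 2 and 3 and -3.37 and -13.3 without LPS replicates 1 and 3. On the positive side were Ndufs6 in frontal cortex (18.2 at 6 h and 15.0 at 12 h, SE 9.41), Ndufb9 in frontal cortex at 6 h and Ndufb8 in frontal cortex at 24 h. Ndufs6 was 7.85 at 6 h and 4.69 at 12 h without saline replicate 2, 28.5 and 25.3 without saline replicate 3, and 5.26 at 12 h without LPS replicate 1. Ndufb9 stood at 53.8 and 38.9 with saline and 72.0, 59.3 and 62.9 at 6 h (18.4, SE 5.99, limma adjusted p = 0.698), and the difference was 10.96 without saline replicate 3. Ndufb8 stood at 63.1 and 51.7 with saline and 69.9, 78.5 and 71.2 at 24 h (15.8, SE 4.02, limma adjusted p = 0.340), and the difference was 10.1 without saline replicate 3.

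The members' groups did not overlap, in either direction, for 6 genes at 6 h, 9 at 12 h and 8 at 24 h in hippocampus, and for 10, 6 and 9 in frontal cortex. These are 17.1%, 25.7% and 22.9% of the members in hippocampus and 28.6%, 17.1% and 25.7% in frontal cortex. The background over all genes was 19.9%, 21.5% and 24.7% in hippocampus and 19.4%, 19.9% and 25.0% in frontal cortex, so the members' shares lay on both sides of it. The median member difference from saline was 0.469, 0.622 and 0.667 percentile points in hippocampus and 1.64, 1.23 and 1.43 in frontal cortex at 6, 12 and 24 h. Over all genes it was 0.343, 0.100 and 0.105 in hippocampus and 0.301, 0.0716 and 0.0486 in frontal cortex. Whether the LPS difference itself differed between tissues was tested within animals. The lowest adjusted p of a member was 0.930 at 6 h, 0.837 at 12 h and 0.633 at 24 h (limma), the last for Ndufb8 (-17.6, SE 6.34).

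**Figure D5:**
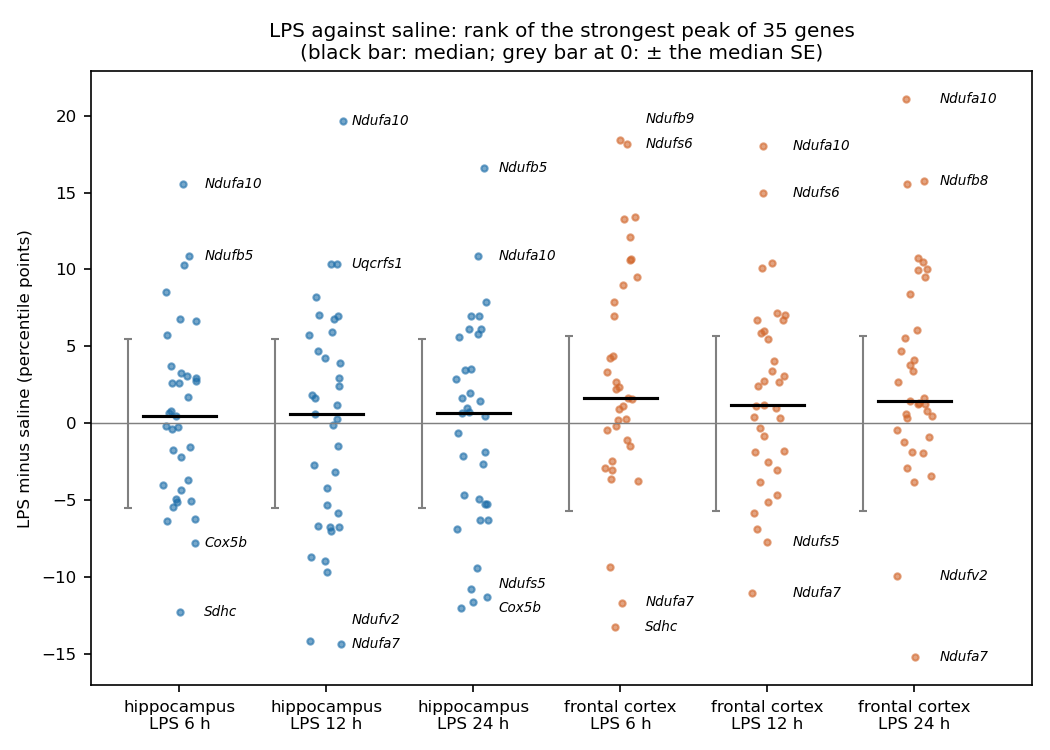
Difference in percentile rank of the strongest peak, LPS minus saline (vertical axis, percentile points), of the 35 genes (points) in each tissue and at each time (horizontal axis), with the median as a black bar, the median SE as a grey bar at 0, and the 2 genes at each end named. Points spread over both sides of 0 in all 6 contrasts, from -15.2 (Ndufa7) to 21.1 (Ndufa10), both in frontal cortex at 24 h.

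Windows were also followed over the challenge. A window that was present in all 3 LPS libraries and neither saline library, or the reverse, was counted as switched. With 3 libraries against 2 no single window can pass a test, so counts are given. In hippocampus 5 of 97 member windows that varied had switched at 6 h, 9 of 94 at 12 h and 6 of 96 at 24 h, that is 5.15%, 9.57% and 6.25%. The background over all windows was 3.59%, 4.83% and 4.99%. Of these windows 1 was gained and the rest lost at each time, so 1.03%, 1.06% and 1.04% were gained, against 0.914%, 2.33% and 2.05% of all windows, and 4.12%, 8.51% and 5.21% were lost, against 2.67%, 2.49% and 2.95%. In frontal cortex 3 of 81, 0 of 87 and 5 of 78 had switched (3.70%, 0.0% and 6.41%), against 3.30%, 4.04% and 6.94% over all windows. The hippocampal saline libraries held 141 and 123 member windows, against 98 to 123 in the LPS libraries, and saline replicate 2 had the most peak intervals of all 22 libraries. The part of list length in the windows lost was not tested.

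Windows inside Ndufv2, at chr17:66084942-66085442, and Ndufa8, at chr2:36038537-36039037, were present in both hippocampal saline libraries and in no other library of either tissue. Of the 8 windows lost at 12 h the others lay in Cox6c, Ndufb7, Ndufs4, Sdha, Uqcrc2 and Uqcrq, and that of Sdha was present again in 2 of 3 libraries at 24 h. In frontal cortex, 3 member windows (3.85%) were gained at 24 h, against 5.45% of all windows. They were 2 windows of Ndufb5 and a window of Ndufb3. The frontal cortex lists held 243851 to 280936 peak intervals at 24 h. They held 265239 and 219391 with saline, 204599 to 244556 at 6 h and 217207 to 238446 at 12 h. The part of list length in the windows gained was not tested. At chr3:32749991-32750491, 13178 bp from the start of Ndufb5, a peak was present in 0 of 2 saline, 0 of 3 libraries at 6 h, 0 of 3 at 12 h and 3 of 3 at 24 h (2.11-fold to 2.53-fold), while all 11 hippocampus libraries had it. At chr3:32745141-32745641 it was present in 0 of 2, 2 of 3, 2 of 3 and 3 of 3 frontal cortex libraries and in none from hippocampus. These windows were chosen after their counts were seen.

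The authors' deposited tables of differential regions, 1 per tissue and time against saline, placed no region on any of the 35 genes. In the authors' deposited tables for frontal cortex, 366, 52 and 5540 regions at 6, 12 and 24 h touched 0.914%, 0.105% and 8.53% of all genes or their 2 kb flanks. In the authors' deposited tables for hippocampus, 23, 3084 and 179 regions touched 0.064%, 5.58% and 0.37%. Widening the flanks to 10 kb still gave 0 members. The nearest regions of the authors' deposited tables were 12411 bp from Ndufa5 in hippocampus at 12 h (higher with LPS, FDR 0.0133) and 22261 bp from Sdhc in frontal cortex at 24 h (higher with LPS, FDR 2.61e-07). In both the deposited regions and the ranks, then, 0 of 35 genes were called for LPS in either tissue.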

How the data were processed

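Omni-ATAC, which inserts sequencing adapters into accessible DNA, was run on frozen tissue (20 to 30 mg), and paired ends of 50 bp were read, per the labels' protocols. The tools named in the submitters' processing notes are MACS2 2.2.7.1, Bowtie2 2.4.4, Trim Galore 0.6.7 and FastQC 0.11.9, with GRCm38 (mm10) as build. Filters and read shifting are not given in the sources used here. The authors deposited 1 peak list per library, with a fold ratio over local background, a score, and -log10 p and -log10 q values. The authors' deposited tables of differential regions list regions with their direction, and their numbers were taken as -10 log10 FDR because the lowest then stands for an FDR of 0.05.

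The 35 genes and the other lists were chosen with earlier results of these data known. Gene bodies came from a RefSeq table of GRCm38.p6, and starts and strands from its promoter table. Windows of 250 bp to either side were placed on summits without overlap, strongest first, and counted as present where a peak overlapped 50% of the shorter. Windows in 2 to 20 libraries entered Fisher's exact test, two-sided. Percentiles were fitted with limma 3.58.1 (R 4.3.3), by tissue over 22 libraries and by group within each tissue, with Benjamini-Hochberg adjustment at 0.05. Both tissues of an animal carry its number in the labels, which pairs them, and the correlation of an animal's tissues was 0.0696 over all genes. The animal as a replicate block was the alternative. Others were stricter or equal peak lists, other gene regions, log2 folds, ranking by -log10 p, all genes with a peak, and leaving out libraries. A search 500 bp around starts was chosen after seeing the data.

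Named genes followed a rule: the 5 windows per direction with the lowest adjusted p, every gene that passed on rank or otherwise the 2 per direction with the largest difference, and the highest and lowest gene per complex. A further tissue marker is not reported here. Scripts were tested on simulated data. Other software was pandas 2.3.3, scipy 1.17.1, numpy 2.4.6 and matplotlib 3.10.9 in Python 3.11.15.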

Additional observations from a re-analysis of the deposited data

How the results depend on the processing

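The counts of member windows called, 12 towards hippocampus and 10 towards frontal cortex, were 7 and 4 (5 and 2 of them among the original) when only peaks with -log10 q from 5 upward were kept and 1 and 1 (0 and 1 among the original) with the 50000 strongest peaks per library. They were 10 to 13 and 8 to 10 when 1 animal was left out, and 9 and 7 with the animal as the replicate block. On rank, the count higher in hippocampus was 0 with peaks within 1 kb of gene ends and 0 within 500 bp of starts (chosen after seeing the data), and 1 when any animal was left out. The count lower in hippocampus was 3 when ranked by -log10 p, which put 1 against 3 in place of 1 against 9 and left Uqcrfs1, Cyc1 and Ndufa10. It was 5 within 500 bp of starts, where 26 genes could be tested, and 7 to 9 when 1 animal was left out. With the replicate block 1 and 8 were called, and Ndufa8 was lost. The higher rank of Ndufa9 in hippocampus became -2.59 near gene ends and -2.77 near starts. Among differences from saline, none of which passed, Ndufv2 at 12 h in hippocampus became 1.63 near gene ends and 1.65 near starts, Ndufs5 at 12 h in frontal cortex ranged from -15.6 to 0.132 (without saline replicates 2 and 3), and Uqcrfs1 at 12 h in hippocampus from -2.30 to 23.1 (without saline replicates 2 and 3). Under each of these, the cause was not tested. For LPS, 0 members were called with the replicate block, with the other measures and gene regions, or without any 1 LPS library. A fit without a saline library rests on 1 control in that tissue, assumed to vary like the other groups, and is not counted here. Peak lists carry no read depth, so a window without a peak is not shown to be closed.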
